A study of Mus musculus with 14 samples.

Results

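The proximal tubule takes back most of the glucose, phosphate, amino acids, bicarbonate and filtered protein of the kidney and secretes organic anions and cations. H3K9cr and H3K9ac peaks were examined at 48 mouse genes of this transport, of 49943 genes in the annotation and 21887 protein-coding ones. They were listed by name and grouped by cargo, as 7 genes for glucose and monocarboxylates, 4 for phosphate, 10 for organic anions, 5 for organic cations and carnitine, 3 for sulphate and dicarboxylates, 12 for amino acids and peptides, 3 for bicarbonate, protons and water, and 4 for endocytosis of filtered protein. All 48 were found in RefSeq on GRCm38.

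ChIP-seq of kidney tissue was done in wild type (WT) mice and in ACSS2 knockout (ACSS2-/-) mice, which lack an enzyme that makes acyl-CoA from short-chain acids in all cells. Kidneys came from controls, which the labels mark by a C without saying whether they were sham-operated, or after unilateral ureteral obstruction (UUO), in which 1 ureter is tied and the kidney becomes fibrotic. For H3K9cr there were 2 libraries in each of the 4 groups (WT control, ACSS2-/- control, WT UUO and ACSS2-/- UUO). For H3K9ac there were 1 library of each control group and 2 of each UUO group. C57BL/6J mice were bought at 6 to 8 weeks of age, and neither the strain of the knockout nor the day of harvest of these kidneys is given in the labels. Because the deletion is in all cells and the tissue was not sorted, no value here belongs to 1 cell type, and fewer proximal tubule cells cannot be told apart from less mark in each of them.

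H3K9cr and H3K9ac are crotonylation and acetylation of lysine 9 of histone H3, and both mark the starts of active genes. Transport across the proximal tubule cell needs an apical carrier, such as the sodium-coupled glucose and phosphate carriers, and a basolateral exit or exchange, such as the facilitative glucose carrier and the organic anion exchangers. Genes of these carriers are active in this segment in the healthy kidney and are known to be turned down when the tubule is injured.

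Each library was a list of peak positions without height, so the measure was the number of bases under peaks, the cover, in kilobases (kb). It was taken within 3 kb of either end of a gene and, separately, over its body. A gene was called to have less or more cover only where all libraries of 1 group lay beyond all libraries of the other. A gene without a peak cannot be called, and shares of protein-coding genes include such genes unless stated. Values of 4 libraries are given in the order WT replicate 1, WT replicate 2, ACSS2-/- replicate 1 and ACSS2-/- replicate 2, and those of the 2 H3K9ac control libraries with WT first.

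Libraries differed in yield. H3K9cr lists held 27530 to 45014 peaks over 29.4 to 64.6 Mb, and H3K9ac lists 15988 to 32760 peaks over 17.7 to 51.1 Mb. UUO libraries covered on average 73.4% of the bases of control libraries for H3K9cr and 52.2% for H3K9ac, so that a lower cover at a gene has to be set against this general shift. Read depth is unknown. Peak names carry a mouse number, and this number is not that of the label in 4 of the 14 lists. Both H3K9ac libraries of ACSS2-/- UUO are among them, as is replicate 1 of H3K9cr in ACSS2-/- UUO and in WT UUO. Peaks on chromosome Y were present in 8 libraries and absent in 6. In H3K9cr they numbered 0, 5, 5 and 2 in controls and 5, 0, 14 and 0 after UUO. In H3K9ac they numbered 4 and 3 in controls and 0, 0, 0 and 13 after UUO, so that both WT UUO libraries had none and both controls had some. In the labels the catalogue number of either antibody rises by 1 from group to group, and whether the antibodies themselves differed is not known. That replicates are separate animals is not stated beyond their numbers, so p-values measure the spread between these libraries only.

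Acss2 itself, the deleted gene, was covered by peaks in all libraries. H3K9cr cover at its ends was 1.28, 1.33, 2.72 and 0.913 kb in controls and 1.07, 1.08, 0.799 and 1.58 kb after UUO. H3K9ac cover was 2.32 and 2.82 kb in controls and 0.869, 1.53, 0.760 and 1.23 kb after UUO. WT and ACSS2-/- values overlapped in H3K9cr of both operations and in H3K9ac after UUO. A peak at the ends of a gene does not test whether exons within it are deleted, and so the genotype labels were not checked by this.

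H3K9cr cover at the transport genes was lower after UUO. Summed over the ends of the 48 genes it was 128.3, 111.3, 164.1 and 122.2 kb in control libraries and 67.9, 47.2, 60.8 and 60.7 kb in UUO libraries. All 4 UUO libraries lay below all control libraries, and the mean after UUO was 45.0% of that in controls, beside 87.3% over all protein-coding genes. Of the 48 genes, 25 had less H3K9cr and 0 had more. Among protein-coding genes 8.81% had less and 1.54% had more. An end peak in these libraries was present at 46 of the 48 genes and at 14801 protein-coding genes. Of these 14801, 13.0% had less and 2.28% had more. By number of peaks in place of covered bases 3 members had less and 1 had more, beside 1.06% and 0.704% of protein-coding genes. The mean was lower after UUO in 43 members, higher in 3 and equal in 2 without any end peak. The median difference was -1.44 kb, beside 0 kb over protein-coding genes and -0.166 kb over those with a peak.

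**Figure D1:**
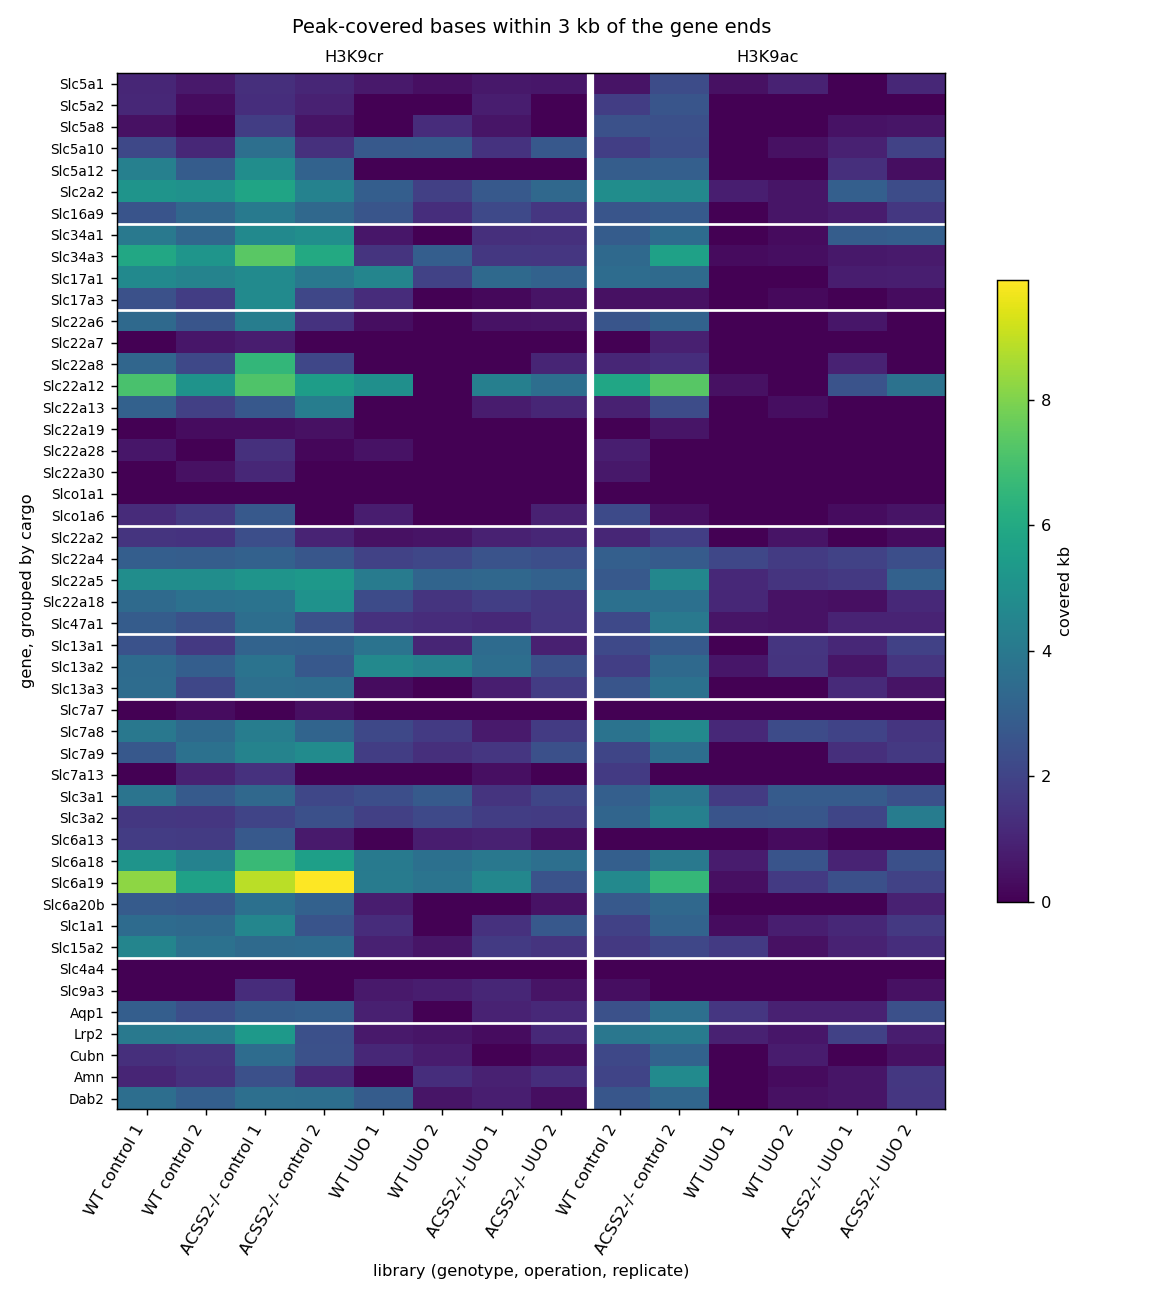
Peak-covered kb within 3 kb of the ends of each of the 48 transport genes (rows, grouped by cargo with white lines) in the 14 libraries (columns, H3K9cr left and H3K9ac right; colour is kb on a linear scale). Slc6a19 has the brightest values, up to 9.90 kb in a control H3K9cr library, and UUO columns are darker than control columns in most rows.

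In the phosphate group 3 of 4 genes had less H3K9cr. Slc34a1, the main phosphate carrier of the brush border, had 4.0, 3.25, 4.71 and 4.88 kb of H3K9cr in controls and 0.597, 0, 1.33 and 1.39 kb after UUO. Slc34a3, the second renal phosphate carrier, had 5.93, 5.16, 7.36 and 6.01 kb in controls and 1.47, 2.96, 1.62 and 1.56 kb after UUO. In both genes the highest UUO library stayed below the lowest control library, and the means after UUO were 19.7% and 31.1% of control. Slc17a3, an anion and urate carrier of the related SLC17 family, went from a mean of 2.78 kb (SD 1.34, n = 4) to 0.498 kb (SD 0.547, n = 4). Slc17a1 of the same family overlapped at its ends, at 4.44 kb in controls against 3.24 kb, with 4.51 kb in WT UUO replicate 1. Over its body it was called less, at 5.07 kb in controls against 3.27 kb. Within 3 kb of its downstream RefSeq start it was also called less, at 5.41 kb against 3.57 kb, but not at the upstream one.

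Among carriers of sugars and short acids 3 of 7 genes had less, and Slc5a12, which takes up lactate with sodium, had no end peak left. Its H3K9cr cover was 4.30, 2.87, 4.84 and 3.11 kb in controls and 0 kb in all 4 UUO libraries. It was the only member with a peak in all 4 control and no UUO library. Slc2a2, the basolateral glucose exit, kept 54.0% of its mean cover: 5.11, 5.01, 5.80 and 4.39 kb in controls and 2.97, 1.87, 2.78 and 3.35 kb after UUO. Slc5a1, a glucose carrier of the late proximal tubule, had little cover in either state, 1.03 kb (SD 0.260, n = 4) against 0.584 kb (SD 0.120, n = 4), and was also called less. Slc5a2, the main glucose carrier of the early tubule, had 1.11, 0.341, 1.30 and 0.893 kb in controls and a UUO peak only in ACSS2-/- replicate 1, of 0.793 kb, so that its groups overlapped.

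Of the 10 organic anion genes 4 had less. Slc22a6, which exchanges organic anions at the basolateral membrane, had 3.40, 2.62, 4.18 and 1.45 kb in controls and 0.358, 0, 0.474 and 0.504 kb after UUO. Slc22a8, a related exchanger of the same membrane, had 3.27, 2.15, 6.54 and 2.10 kb in controls and a single UUO library with peaks, at 1.01 kb. The urate carrier Slc22a12 held 7.05, 5.09, 7.17 and 5.51 kb in controls and 4.92, 0, 4.29 and 3.59 kb after UUO. Its windows also hold an end of Nrxn2. Within 3 kb of its RefSeq start it was not called, at 5.59, 4.57, 6 and 4.86 kb in controls and 4.57, 0, 3.96 and 3.59 kb after UUO. WT UUO replicate 2 had no peak at the ends of any of the 10 organic anion genes, and the other 3 UUO libraries summed to between 5.52 and 7.11 kb, beside 13.9 to 27.0 kb in controls. Slc22a13, a carrier of urate and nicotinate, fell to 15.4% of its control mean. Slco1a1, an organic anion carrier of the apical membrane, had no peak at its ends or in its body in any of the 14 libraries.

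Among carriers of organic cations and carnitine 4 of 5 had less, with 45.0% to 76.9% of the control mean left. Slc22a5, which takes up carnitine, had 4.85, 4.87, 5.11 and 5.27 kb in controls and 4.10, 3.19, 3.32 and 3.09 kb after UUO. Slc22a4, a related carrier, had 76.9% of its control mean left and Slc47a1, which extrudes cations into the urine, 47.3%. The lowest share was that of Slc22a18, an imprinted cation carrier gene. Of the 3 sulphate and dicarboxylate genes only Slc13a3, the basolateral dicarboxylate carrier, was called at its ends. It had 3.50, 2.10, 3.63 and 3.55 kb in controls and 0.333, 0, 0.839 and 1.76 kb after UUO.

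Amino acid and peptide carriers gave 6 of 12 calls. Slc6a19, which takes up neutral amino acids at the brush border, had the highest mean H3K9cr cover of the members' end windows in controls. Its windows also hold ends of Slc6a18 and Slc6a19os. It had 8.22, 5.66, 8.88 and 9.90 kb in controls and 4.11, 3.79, 4.60 and 2.55 kb after UUO. Slc6a20b, an imino acid carrier, had 2.83, 2.71, 3.67 and 3.08 kb in controls and 0.796, 0, 0 and 0.484 kb after UUO. Slc15a2, which recovers small peptides, had 4.50, 3.68, 3.42 and 3.45 kb in controls and 0.922, 0.553, 1.67 and 1.47 kb after UUO. The groups did not overlap at the ends of any of these genes, with the lowest control and the highest UUO library of Slc6a19 at 5.66 and 4.60 kb. Within 3 kb of the RefSeq start of Slc6a19 they did overlap, at 1.17, 1.30, 3.45 and 1.86 kb in controls and 1.21, 0, 0.372 and 0 kb after UUO. Slc7a9, the light chain of the cystine carrier, had 45.8% of its control mean left and Slc7a8, a basolateral neutral amino acid exchanger, 42.7%. Slc6a18, which lies beside Slc6a19 and shares part of its window, had 70.2% left. In contrast Slc3a2, the heavy chain of amino acid exchangers in most cell types, had 1.90 kb (SD 0.395, n = 4) in controls and 1.89 kb (SD 0.200, n = 4) after UUO.

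Of the 4 endocytosis genes 3 had less. Lrp2, which encodes megalin, had 4.01, 4.09, 5.37 and 2.43 kb in controls and 0.686, 0.550, 0.316 and 1.14 kb after UUO. Cubn, its partner cubilin, had 1.32, 1.47, 3.51 and 2.44 kb in controls and 1.10, 0.744, 0 and 0.347 kb after UUO. Dab2, the adaptor of both, had 3.59, 3.0, 3.61 and 3.59 kb in controls and 2.90, 0.570, 0.832 and 0.368 kb after UUO, where WT UUO replicate 1 came close to the controls. Amn overlapped, at 1.49 kb against 0.875 kb. Aqp1, the water channel of this segment, had 2.97, 2.39, 2.89 and 3.0 kb in controls and 0.851, 0, 0.942 and 1.16 kb after UUO.

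With 4 libraries against 4 the smallest exact permutation p is 0.0286 (two-sided), and the smallest value after adjustment over 49943 genes was 0.420, so that no single gene passes an adjusted exact test. In limma, which shares the spread among genes, 18 members had less H3K9cr at an adjusted p under 0.05 and 0 had more, beside 5.91% of the 23157 genes tested with less. The smallest adjusted p among members in limma was that of Slc6a20b, 0.00182, with a difference of -2.75 kb (SE 0.270). When cover was divided by the covered bases of each library, 16 members had less H3K9cr and 0 had more, while 1.82% of protein-coding genes had less and 10.9% had more.

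H3K9ac gave the same direction with a larger general shift. Cover at the ends of the 48 genes summed to 101.9 and 130.2 kb in the 2 control libraries and to 18.6, 28.1, 40.7 and 54.1 kb after UUO. The mean after UUO was 30.5% of control, beside 64.2% over protein-coding genes. Of the members 31 had less H3K9ac and 0 had more, beside 30.0% and 0.233% of protein-coding genes. Of protein-coding genes with an H3K9ac end peak 45.9% had less and 0.357% had more, and 45 members had such a peak. By number of peaks 6 had less and 0 had more, beside 3.33% and 0.594%. As a share of the covered bases of each library, 17 had less and 1 had more, beside 4.21% and 18.9% of protein-coding genes, and the member with more was Slc3a2. With 4 libraries against 2 the smallest exact permutation p is 0.0667, and the smallest after adjustment was 0.479. In limma 20 members had less at an adjusted p under 0.05, beside 9.18% of genes.

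**Figure D2:**
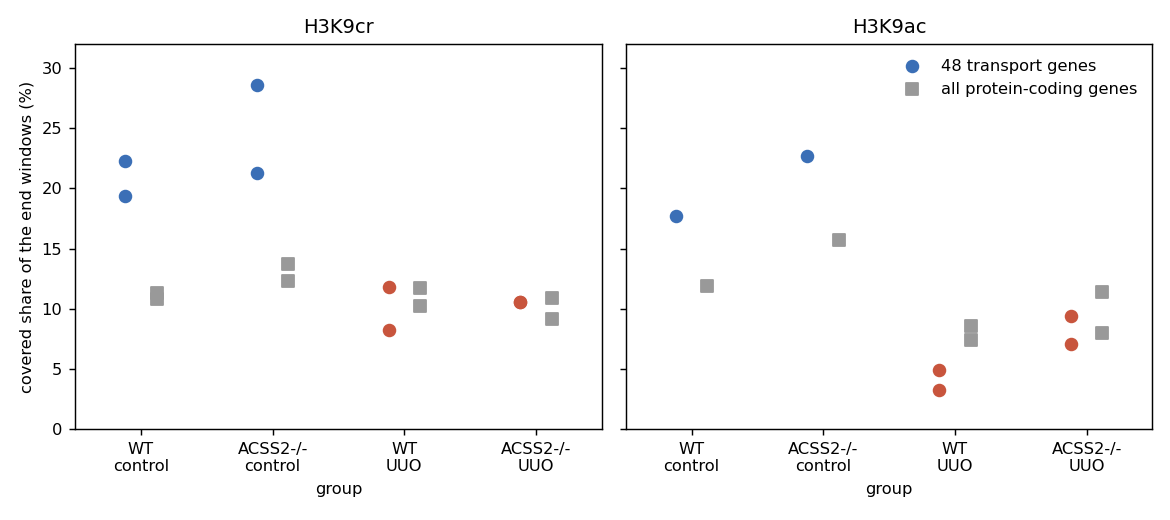
Percent of the end windows under peaks (vertical axis) in each library of the 4 groups (horizontal axis), for H3K9cr on the left and H3K9ac on the right. Circles are the 48 transport genes, blue in control and red after UUO, and grey squares are all protein-coding genes. Circles lie above squares in every control library, at 17.7% to 28.6%, and between 3.23% and 11.8% after UUO, where the 2 H3K9cr values of ACSS2-/- coincide at 10.6%.

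By cargo less H3K9ac was found at 5 of 7 glucose and monocarboxylate genes, 3 of 4 phosphate, 4 of 10 organic anion, 4 of 5 organic cation, 3 of 3 sulphate and dicarboxylate, 7 of 12 amino acid and peptide, 1 of 3 bicarbonate and water and 4 of 4 endocytosis genes. Slc5a2 had 1.78 and 2.62 kb in controls and 0 kb in all 4 UUO libraries, and was the only member with H3K9ac in both control and no UUO library. Slc17a1 had 3.50 and 3.43 kb at its ends in controls and 0.00100, 0.0120, 0.796 and 0.832 kb after UUO. Over its body more was left, with 4.74 and 5.52 kb in controls and 1.28, 1.35, 1.14 and 1.51 kb after UUO. This is 25.7% of the control mean. Slc34a3 had 3.40 and 5.65 kb in controls and 0.307, 0.378, 0.638 and 0.722 kb after UUO. Less than 20% of the control mean was left at 12 of the 31 genes. Slc22a6 was down to 5.10% and Slc22a13 to 5.93%, whereas Slc7a8 had 41.2% and Aqp1 47.8% left. Slc22a12 showed the largest loss in kb, from 5.86 and 7.33 kb to 0.463, 0, 2.53 and 3.72 kb. All 4 endocytosis genes had less, among them Amn, the membrane anchor of cubilin, at 2.02 and 4.74 kb in controls and 0, 0.303, 0.545 and 1.62 kb after UUO.

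Of the members, 21 had less of both marks, which is 84.0% of the H3K9cr calls and 67.7% of the H3K9ac calls. Less of both marks was found at 6.48% of protein-coding genes, which is 73.6% of their H3K9cr calls and 21.6% of their H3K9ac calls. The 4 with less H3K9cr whose H3K9ac overlapped were Slc5a1, Slc34a1, Slc22a5 and Slc15a2. The 10 with less H3K9ac whose H3K9cr overlapped included Slc5a2, Slc5a8 (a carrier of lactate and other short acids), Slc16a9 (a monocarboxylate carrier), Slc17a1, Slc13a2 (the apical citrate carrier) and Slc1a1 (a glutamate carrier). At the ends of Slc13a2, H3K9cr was 3.45, 2.97, 3.78 and 2.73 kb in controls and 4.67, 4.36, 3.57 and 2.41 kb after UUO, while H3K9ac was 1.83 and 3.38 kb against 0.585, 1.49, 0.574 and 1.54 kb. These windows also hold an end of Slc13a2os. Within 3 kb of the RefSeq start of Slc13a2, H3K9cr was less after UUO too. It was 3.50, 3.02, 3.83 and 2.49 kb in controls and 1.39, 1.23, 1.10 and 1.41 kb after UUO. Whether the marks differ in their change was not tested.

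The same direction was found over the gene bodies. A body includes the bases up to 3 kb inside each end, so that its counts share bases with those at the ends. Over the gene bodies H3K9cr summed to 212.0, 183.9, 326.9 and 229.3 kb in controls and 105.6, 67.2, 95.8 and 78.0 kb after UUO, 36.4% of the control mean beside 74.0% over protein-coding genes. There 26 members had less and 0 had more H3K9cr. This was beside 10.1% and 1.81% of protein-coding genes, and 14.6% and 2.62% of those with a body peak. In limma 15 members had less, beside 5.52% of genes. H3K9ac over the bodies was 23.9% of control beside 53.8%, with 37 members less and 0 more, beside 28.2% and 0.370%, and 17 less in limma beside 7.96% of genes. Of protein-coding genes with an H3K9ac body peak 42.1% had less and 0.552% had more. Slc4a4, the basolateral sodium bicarbonate carrier, has no peak at its annotated ends but held 19.3, 20.5, 29.1 and 21.4 kb of H3K9cr in its body in controls and 9.47, 6.28, 6.62 and 4.35 kb after UUO. Slc9a3, the apical sodium proton exchanger, had 10.0, 9.46, 21.4 and 13.9 kb in its body in controls and 2.31, 1.84, 3.48 and 4.08 kb after UUO. Slc22a4 and Slc13a3 had 27.5% and 14.5% of the control mean left over the body, beside 76.9% and 23.0% at the ends.

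Peaks around start sites were wide in control kidneys and narrow after UUO. For 41 of the 48 genes RefSeq gives 52 start sites. In control libraries 82.7% of these starts were under an H3K9cr peak 400 bases into the gene, and 42.8% still were at 2000 bases. After UUO the shares were 64.0% and 15.4%. Over all protein-coding starts, by comparison, the highest share was 53.1% in controls and 53.4% after UUO, and the share at 2000 bases was 8.92% and 6.60%. H3K9ac at the members reached 80.8% in controls and 45.7% after UUO, and at 2000 bases 57.6% and 14.9%, while over protein-coding starts its highest share was 53.8% and 48% and that at 2000 bases 15% and 6.67%.

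**Figure D3:**
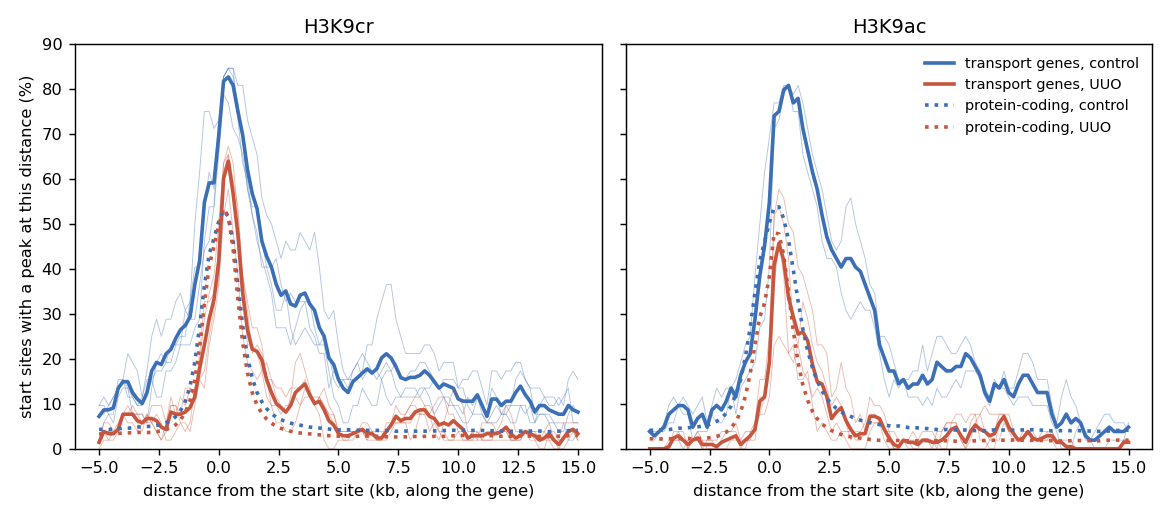
Share of start sites under a peak (vertical axis, %) at each distance from the start site along the gene (horizontal axis, kb), for H3K9cr and H3K9ac. Thick solid lines are means over libraries for the 52 starts of the transport genes, thin lines single libraries, and dotted lines all protein-coding starts, with control in blue and UUO in red. The blue solid line tops out above 80% and keeps a wide shoulder inside the gene, while the red one is lower and narrow.

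Slc4a4 and Dab2 have a pair of starts each that changed differently in H3K9cr, and were chosen for this after their values were seen. The starts of Slc4a4 lie 140.7 kb apart, the upstream one serving forms of other tissues and the downstream one the form of the kidney. At the upstream start H3K9cr was 1.90, 1.79, 2.06 and 1.80 kb in controls and 2.14, 1.71, 2.0 and 1.48 kb after UUO. At the downstream start it was 3.26, 2.62, 3.34 and 3.03 kb in controls and 1.78, 1.85, 0.921 and 1.18 kb after UUO. The downstream start thus exceeded the upstream one by 1.17 kb in controls and by -0.401 kb, that is less than it, after UUO, with no overlap between control and UUO libraries. In H3K9ac this difference between starts was 0.934 kb in controls and 0.574 kb after UUO, and the libraries overlapped. These values are given without a test, since the starts were picked for them.

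Dab2 showed the reverse order along the gene. At its upstream start H3K9cr was 3.59, 3.0, 3.61 and 3.59 kb in controls and 2.90, 0.570, 0.832 and 0.368 kb after UUO. The start 87.0 kb downstream had 2.99, 2.89, 3.62 and 3.0 kb in controls and 3.68, 3.20, 3.66 and 2.63 kb after UUO. Upstream minus downstream cover was 0.325 kb in controls and -2.13 kb after UUO, again without overlap. For H3K9ac it was -0.310 kb and -1.95 kb.

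**Figure D4:**
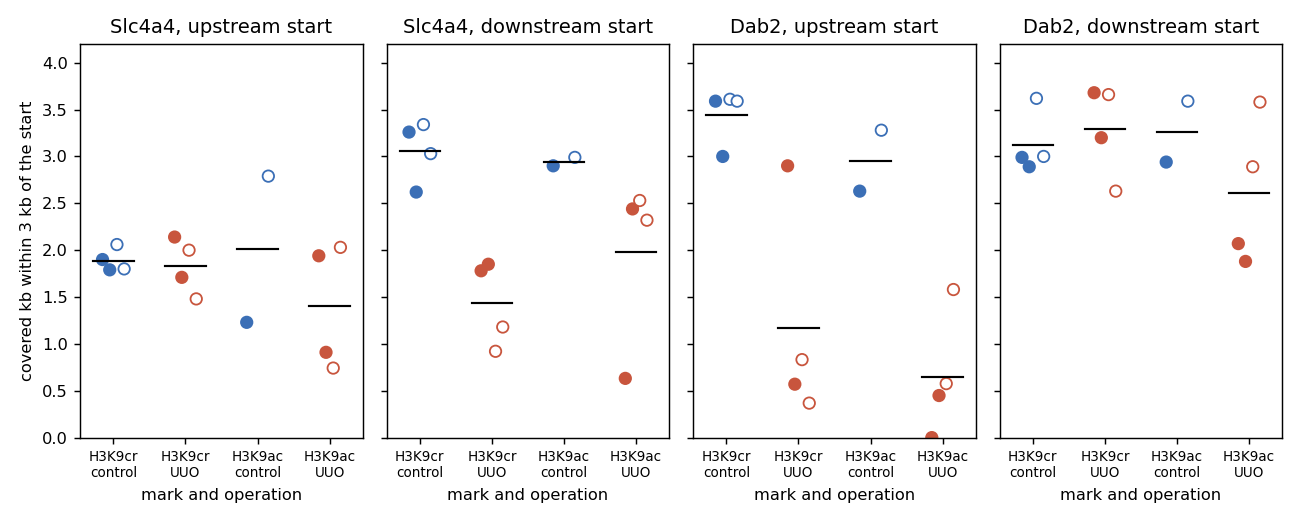
Peak-covered kb within 3 kb of each of the starts of Slc4a4 and Dab2 (vertical axis) by mark and operation (horizontal axis). Each point is a library, filled for WT and open for ACSS2-/-, blue for control and red for UUO, and bars are means. Control and UUO points of H3K9cr separate at the downstream start of Slc4a4 and the upstream start of Dab2, and overlap at the other start of each gene.

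The promoters of these starts differ in base composition, and the 150 bases before each start are shown for that reason with every CG in capitals (RefSeq starts, GRCm38.p6, 5′ to 3′ on the strand of the gene). The starts of Slc4a4 and Dab2 that kept their H3K9cr hold 50 and 19 CG in the 300 bases of the promoter, and those with less hold 3 and 2.
Slc4a4 upstream, chr5:88887110-88887259, plus strand: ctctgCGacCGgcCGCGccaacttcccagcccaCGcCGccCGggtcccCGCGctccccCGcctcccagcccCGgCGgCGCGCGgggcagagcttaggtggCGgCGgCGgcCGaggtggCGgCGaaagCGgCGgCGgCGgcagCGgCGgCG
Slc4a4 downstream, chr5:89027816-89027965, plus strand: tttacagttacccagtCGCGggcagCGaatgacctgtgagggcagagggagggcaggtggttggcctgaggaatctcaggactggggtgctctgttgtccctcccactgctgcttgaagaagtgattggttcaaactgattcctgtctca
Dab2 upstream, chr15:6299639-6299788, plus strand: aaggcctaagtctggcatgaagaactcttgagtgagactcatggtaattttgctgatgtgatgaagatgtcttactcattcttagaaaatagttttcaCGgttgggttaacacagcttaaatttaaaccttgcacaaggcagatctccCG
Dab2 downstream, chr15:6386598-6386747, plus strand: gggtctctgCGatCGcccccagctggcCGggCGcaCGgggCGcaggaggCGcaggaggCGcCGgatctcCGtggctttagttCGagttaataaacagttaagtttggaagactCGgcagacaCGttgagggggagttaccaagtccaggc
Among the other members CG content and the call did not always go together. Slc34a1 with less H3K9cr is poor in CG, with 2 in 300 bases, but Lrp2 with less H3K9cr holds 20, and Slc3a2 with overlapping groups holds 15.
Slc34a1, chr13:55399498-55399647, plus strand: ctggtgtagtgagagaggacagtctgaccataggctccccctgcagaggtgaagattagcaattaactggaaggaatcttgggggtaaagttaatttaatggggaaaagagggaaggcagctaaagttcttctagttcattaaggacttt
Lrp2, chr2:69586030-69586179, minus strand: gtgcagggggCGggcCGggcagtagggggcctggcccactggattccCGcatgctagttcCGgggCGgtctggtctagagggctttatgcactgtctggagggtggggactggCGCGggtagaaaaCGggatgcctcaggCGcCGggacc
Slc3a2, chr19:8713898-8714047, minus strand: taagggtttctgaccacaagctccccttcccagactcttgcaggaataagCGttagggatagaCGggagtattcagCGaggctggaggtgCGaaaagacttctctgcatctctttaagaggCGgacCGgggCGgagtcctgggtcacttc

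Over the 52 promoters of members the median was 6 CG in 300 bases, beside 13 in the 21263 protein-coding promoters. Member starts with less H3K9cr had a median of 4 CG (quartiles 2 and 9.5, 26 starts of 25 genes). The other starts with a peak had a median of 7 (quartiles 4 and 15, 25 starts of 19 genes), so that the ranges overlapped widely. Several starts belong to 1 gene, some close together, and genes such as Slc4a4 and Dab2 are in both sets. For H3K9ac the medians were closer, 5.5 (32 starts of 29 genes) and 6.5 (16 starts of 14 genes). Over protein-coding genes these medians were 19 and 20 for H3K9cr and 20 in both for H3K9ac. A motif of the hepatocyte factor HNF1, TTAATNATT, was found on either strand in 4 of the 52 member promoters, at Cubn, Slc7a8 and the overlapping pair of starts of Slc7a9, which is 7.69% beside 1.47% of all 32851 promoters. A motif of HNF4, CAAAGTCCA, was found in 1, that of Slc3a1, which is 1.92% beside 0.475%. No promoter held overlapping matches of both. These are matches of letters only.

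Genotype was compared within each operation, with 2 libraries against 2. The smallest exact permutation p is then 0.333, and directions alone are given here. In control kidneys H3K9cr cover at the members summed to 128.3 and 111.3 kb in WT and 164.1 and 122.2 kb in ACSS2-/-. More H3K9cr in ACSS2-/- was called at 15 members and less at 1, beside 25.3% and 3.18% of protein-coding genes, a share of the members close to that of all genes. Of protein-coding genes with an end peak 39.5% had more and 4.97% had less, and 46 members had a peak. The member with less was Slc15a2. The count with more rose whichever library was left out, and that with less in some cases. Both rose with the replicate block, as the last section gives. By the rule such counts can stay or rise but not fall. The ACSS2-/- control lists covered 64.6 and 51.4 Mb and the WT lists 41.7 and 44.8 Mb. As a share of these bases 1 member, Cubn, had more and 12 had less, beside 4.86% and 24.4% of protein-coding genes, so that the direction turns with the scaling and the members' share is again close to that of all genes. With equal numbers of the longest peaks in each list 10 had more and 3 had less, beside 17.8% and 4.46%. Slc6a19 had 8.22 and 5.66 kb in WT and 8.88 and 9.90 kb in ACSS2-/-, and Slc7a9 had 2.73 and 3.69 kb in WT and 4.41 and 4.76 kb in ACSS2-/-.

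After UUO H3K9cr at the members did not separate by genotype in sum, with 67.9 and 47.2 kb in WT and 60.8 and 60.7 kb in ACSS2-/-. There were 9 members with more and 5 with less in ACSS2-/- UUO, beside 5.43% and 16.4% of protein-coding genes. Of protein-coding genes with an end peak 8.30% had more and 25.1% had less, and 41 members had a peak. Both counts rose whichever library was left out, and that with less also rose with the replicate block, as the last section gives. The rule does not let either count fall in these alternatives. As a share of covered bases 11 had more and 2 had less, beside 12.8% and 7.26%, so that the direction over protein-coding genes turns with the scaling. With equal numbers of the longest peaks 5 had more and 4 had less, beside 5.21% and 14.1%. Without scaling, those with more were Slc34a1, Slc22a6, Slc22a13, Slc22a2 (a basolateral cation carrier), Slc22a4, Slc13a3, Slc1a1, Slc15a2 and Aqp1. Slc34a1 had 0.597 and 0 kb in WT and 1.33 and 1.39 kb in ACSS2-/-, and Slc1a1 had 1.24 and 0 kb against 1.43 and 2.74 kb. Those with less were Slc5a10 (a carrier of mannose and fructose), Slc13a2, Slc3a1 (the heavy chain of the cystine carrier), Slc3a2 and Cubn. In the same comparison 7 of 16 leukocyte genes, 6 of 15 injured tubule genes and 9 of 30 distal transport genes had less H3K9cr in ACSS2-/-, and 0, 1 and 1 had more. Of 40 proximal tubule genes of other roles 9 had more and 5 had less. Of 13 transcription factors of the segment 3 had more and 2 had less. Endothelial genes gave 1 of 10 each way. Less was counted at 2 of 10 stroma and 2 of 6 podocyte genes, and more at 0. Leukocyte genes summed to a mean of 43.0 kb in WT and 26.3 kb in ACSS2-/-. The part of these cells in the genotype difference was not tested.

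H3K9ac after UUO was higher in ACSS2-/- at these genes. The sums were 18.6 and 28.1 kb in WT and 40.7 and 54.1 kb in ACSS2-/-. More H3K9ac was called at 18 members and less at 0, beside 18.3% and 1.66% of protein-coding genes. Of protein-coding genes with an end peak 29.8% had more and 2.70% had less, and 39 members had a peak. As a share of the covered bases of each library 17 members had more and 0 had less, beside 7.38% and 12% of protein-coding genes. With equal numbers of the longest peaks in each list 13 members had more and 1 had less, beside 17.4% and 2.31%. Slc34a1 had 0 and 0.297 kb in WT UUO and 2.91 and 2.99 kb in ACSS2-/- UUO, close to the 2.90 and 3.47 kb of the control libraries. Slc2a2 had 0.822 and 0.550 kb in WT and 2.99 and 2.29 kb in ACSS2-/-, between the WT UUO values and the 4.84 and 4.66 kb of controls. Slc7a9 had 0 kb in both WT libraries and 1.33 and 1.66 kb in ACSS2-/-. The WT UUO lists covered 17.7 and 21.2 Mb and the ACSS2-/- UUO lists 19.3 and 30.9 Mb. The part of this in the difference was not tested beyond the scaling and equal peak numbers above. Other lists were counted too. More H3K9ac in ACSS2-/- UUO was called at 16 of 40 proximal tubule genes of other roles, 7 of 13 transcription factors of the segment, 4 of 10 stroma genes, 1 of 10 endothelial and 1 of 6 podocyte genes, with 1 of the 40 and 0 of the others less. Of 30 distal transport genes 1 had more and 4 had less, and of 15 injured tubule genes 2 had more and 1 had less. Leukocyte genes, of which 2 of 16 had more and 1 had less, summed to 11.0 and 25.3 kb in WT and 14.4 and 42.6 kb in ACSS2-/-. The part of other cells in this difference was not tested.

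Between the marks, all 12 pairs of an H3K9cr and an H3K9ac library of the same group were compared. More H3K9cr in all pairs was found at 5 members, Slc34a3, Slc17a1, Slc22a5, Slc6a18 and Slc6a19, beside 2.44% of protein-coding genes. Over the body none of these had more H3K9cr in all pairs. The end windows of Slc34a3 also hold an end of Rnf224. Within 3 kb of its RefSeq start after UUO, H3K9cr was 0, 0, 0 and 0.0900 kb and H3K9ac 0 kb in all libraries. More H3K9ac in all pairs was found at 1, Slc3a2, beside 1.51%. The study describes both marks as profiled in the same samples, but which libraries belong to 1 kidney is unsure, since labels and peak names differ in the numbers of some. In the 6 pairs of libraries with the same number in the labels, 7 members had more H3K9cr, with Slc22a18 and Slc7a9 besides those above, and 1, Slc3a2, had more H3K9ac, beside 3.59% and 2.23% of protein-coding genes. These pairs are part of the 12, so that counts could only stay or rise. At the ends of Slc17a1 after UUO, H3K9cr was 4.51, 1.94, 3.40 and 3.13 kb and H3K9ac at most 0.832 kb. Within 3 kb of its upstream RefSeq start, H3K9cr was 5.87, 3.27, 4.79 and 3.56 kb and H3K9ac 1.28, 1.35, 1.70 and 1.92 kb. Over its body the pairs did not all have more H3K9cr. At the ends of Slc3a2 after UUO, H3K9cr was 1.86, 2.17, 1.80 and 1.72 kb and H3K9ac 2.56, 2.63, 2.08 and 4.14 kb. These windows hold 9 ends of other genes. Within 3 kb of its RefSeq start the marks overlapped after UUO. There H3K9cr was 2.92, 2.93, 2.80 and 3.47 kb and H3K9ac 2.78, 2.90, 2.91 and 3.59 kb. Over its body the pairs did not all differ in 1 direction either. As a share of covered bases 1 member had more H3K9cr and 2 had more H3K9ac in all 12 pairs, beside 0.612% and 21.8% of protein-coding genes.

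Other genes of the proximal tubule and of other kidney cells were counted in the same way. Of 40 proximal tubule genes of other roles, 21 had less H3K9cr after UUO and 0 had more. Among them were Pck1, Fxyd2 and Acsm1, with the gluconeogenic enzyme gene Pck1 at 8.85, 8.12, 10.7 and 8.25 kb in controls and 3.60, 2.37, 5.11 and 5.97 kb after UUO. Of 13 transcription factors of the segment 5 had less and 0 more, among them Ppara, a regulator of fatty acid oxidation, with 5.82 kb against 3.33 kb. Of 30 transport genes of the distal nephron and collecting duct 6 had less and 0 more, among them Bsnd and Kcnj1, which serve salt transport of the loop. Less H3K9ac was counted at 28, 9 and 14 genes of these lists and more at 0. The distal genes summed to 40.6, 46.6, 66.7 and 46.3 kb of H3K9cr in controls and 40.4, 34.8, 29.1 and 23.7 kb after UUO, and to 45.6 and 63.4 kb of H3K9ac in controls and 20.1, 25.1, 15.9 and 24.5 kb after UUO.

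**Figure D5:**
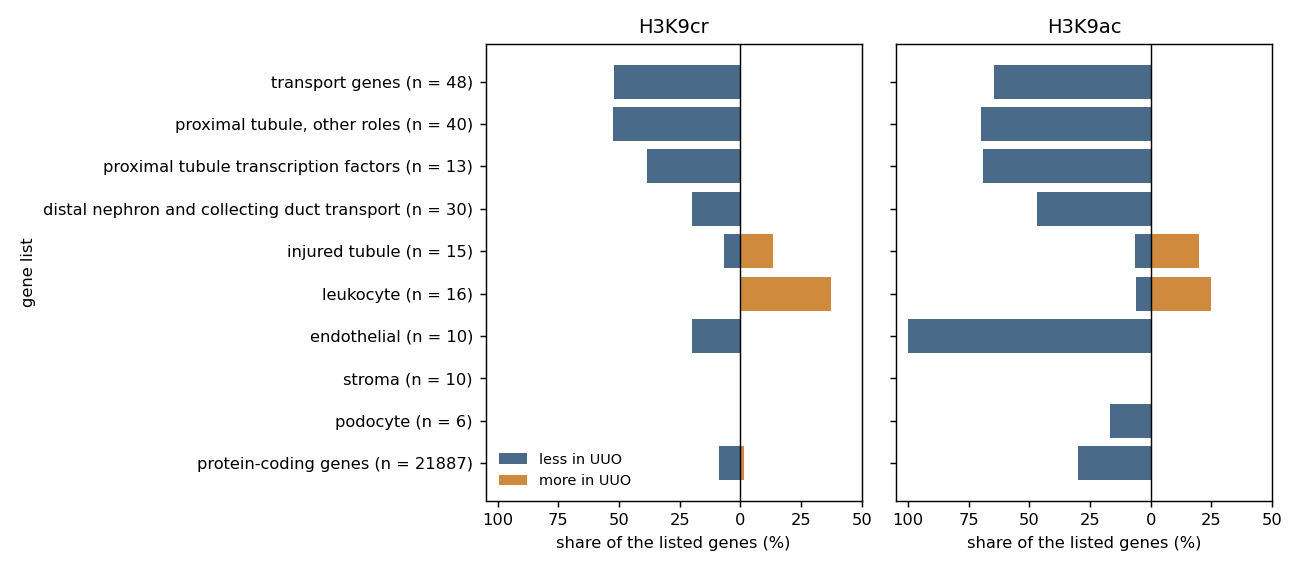
Percent of the genes of each list with less (bars to the left) or more (bars to the right) cover in UUO than in control at the gene ends, for H3K9cr and H3K9ac, with the number of genes in brackets. Transport genes reach 52.1% and 64.6% less, and protein-coding genes 8.81% and 30.0%; the leukocyte list has the widest bars to the right, at 37.5% and 25%.

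Markers of other cells were counted as well. Of 16 leukocyte genes 6 had more H3K9cr after UUO and 0 had less. Their summed cover was 5.72, 6.20, 9.03 and 7.40 kb in controls, where Cd79a or Cd68 had the most, and 47.4, 38.6, 33.6 and 19.0 kb after UUO, where C1qc had the most. C1qc, a complement gene of macrophages, had 0 kb in all 4 control libraries and 8.72, 6.29, 6.66 and 3.33 kb after UUO. In H3K9cr of controls 10 of the 16 were at 0, among them Ptprc, C1qa and Tyrobp, and of these Itgam alone was at 0 in all UUO libraries too. Leukocyte H3K9ac summed to 8.05 and 12.9 kb in controls and 11.0, 25.3, 14.4 and 42.6 kb after UUO. Injured tubule genes summed to 15.4, 17.0, 21.5 and 21.4 kb of H3K9cr in controls and 31.0, 28.8, 29.2 and 17.9 kb after UUO, where ACSS2-/- UUO replicate 2 lay among the controls. Spp1 had the most in 7 of these 8 libraries and Krt8 in WT UUO replicate 2. In this list 2 of 15 had more, Cd44 and Lcn2, and 1, Itgb6, had less. For H3K9ac 4 leukocyte and 3 injured tubule genes had more and 1 of each list had less. The part of these cells in the difference at the transport genes was not tested.

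Endothelial, stroma and podocyte genes were also counted. Less H3K9cr was counted at 2 of 10, 0 of 10 and 0 of 6 genes, and more at 0 in each list. For H3K9ac 10 of 10, 0 of 10 and 1 of 6 had less, and 0 had more. Summed H3K9cr of the endothelial genes was 17.3, 26.4, 31.7 and 24.3 kb in controls and 21.2, 10.2, 17.3 and 9.43 kb after UUO, that of the stroma genes 4.09, 7.52, 10.5 and 2.99 kb against 13.3, 11.6, 14.3 and 5.53 kb, and that of the podocyte genes 5.81, 7.10, 10.4 and 8.15 kb against 7.49, 7.57, 7.65 and 5.69 kb. Endothelial H3K9ac was 37.2 and 41.9 kb in controls and 12.5, 9.93, 10.0 and 23.6 kb after UUO.

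Sexes were not given for the libraries. Between libraries with chromosome Y peaks alone (2 UUO against 3 control) 30 members had less H3K9cr and 1 had more, beside 16% and 7.36% of protein-coding genes. Between those without (2 against 1) 35 had less and 4 had more, beside 30.0% and 14.3%. For H3K9ac the libraries with chromosome Y peaks were 1 UUO against 2 control, with 32 members less and 1 more, beside 32.7% and 8.83%, and no control library was without them. With fewer libraries the non-overlap rule can only keep or raise these counts. Of the members, 23 hold another gene's end within their windows, as Slc6a18 and Slc6a19 do for each other. Among the 25 that do not, 12 had less H3K9cr and 14 less H3K9ac, beside 6.70% and 20.8% of the 10498 protein-coding genes without such a neighbour. There were 9 members whose end cover stayed under 2 kb in all libraries, with a highest value of 1.70 kb, and none of these was called at its ends in either comparison of UUO with control.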

How the data were processed

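Peak lists of 14 ChIP-seq libraries were used. Per the labels' processing notes the authors used Bowtie2, MACS2 and ChIPseeker with mm10, and per their methods peaks were called in each library at a q-value under 0.05. The deposited files hold peak positions only, with no score, height or count. Versions are not given in the sources used here.

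Covered bases were computed on RefSeq genes of GRCm38.p6 (the same build as mm10) with Python 3.11.15, numpy 2.4.6 and pandas 2.3.3, after merging peaks, in windows of 3 kb on either side of both gene ends and over the body. The planned rule called a gene less or more where groups did not overlap. Exact two-sided permutation of the difference of means was run over libraries, with Benjamini-Hochberg adjustment over 49943 genes, and limma 3.58.1 (R 4.3.3) on covered kb of genes with a peak. Groups and replicates came from the labels, and mark, operation and genotype each entered alone. The members and all lists (proximal tubule genes of other roles, transcription factors, distal nephron, injured tubule, leukocyte, endothelial, stroma, podocyte) were chosen with earlier results of these data known. Named are the called members, up to 25 a comparison by size of difference, defining genes of the segment, Acss2, members without a peak, and up to 4 called genes of other lists, of which some are not reported here; Slc3a2 and Itgam, and the starts of Slc4a4 and Dab2, were named after their values were seen. Of 2000 gene bodies, 0 differed in covered bases from bedtools 2.31.1. In simulated H3K9cr data of UUO against control over 23157 genes with 200 lowered to 40%, the non-overlap rule found 96.5% of them and limma 71.0%, and called 1.31% of the unchanged genes less and 0.0479% changed. All simulated libraries were drawn from control values without a general shift. The lowered genes had more than 1 kb in every control library. These rates therefore need not hold for the real lists. Alternatives were a 1 kb window, start sites only, no neighbouring gene end, numbers of peaks, scaling by covered bases, equal numbers of the longest peaks (15988), limma, chromosome Y subsets, a replicate block and leaving out each replicate. Promoters, from 250 bases before to 50 after each start, came from RefSeq and were found for 41 of 48 members.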

Additional observations from a re-analysis of the deposited data

Results flagged for a closer look

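Cover of each member was looked at in groups of 4 libraries of 1 mark and operation, and 15 of 132 such groups held a library far from the other 3. Chance sets about 1 in 20 groups apart in this way, a rate for continuous values that does not hold where several libraries are at 0. Values are kb at the gene ends, and no explanation was tested.

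In H3K9cr of control kidneys the library apart was WT replicate 2 for Slc13a3, lowest at 2.10 kb, and for Dab2, lowest at 3.0 kb, and ACSS2-/- replicate 1 for Slc9a3, highest at 1.24 kb. In H3K9cr after UUO it was ACSS2-/- replicate 1 for Slc5a2, highest at 0.793 kb, for Slc7a13, highest at 0.425 kb, and for Slc5a10, lowest at 1.45 kb. There WT replicate 2 was highest for Slc34a3 at 2.96 kb, ACSS2-/- replicate 2 for Slc22a8 at 1.01 kb, and WT replicate 1 for Slc22a28 at 0.490 kb.

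In H3K9ac after UUO ACSS2-/- replicate 1 was highest for Slc22a6 at 0.585 kb and for Slc22a8 at 0.939 kb. WT replicate 2 was highest for Slc22a13 at 0.377 kb and Slc6a13 at 0.294 kb. ACSS2-/- replicate 2 was highest for Slc6a20b at 0.903 kb and Slc9a3 at 0.446 kb. In several of these groups the other 3 libraries had no peak, so that a single narrow peak sets the library apart.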

How the results depend on the processing

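The lists hold no height or depth, so a narrow peak and a lost one near the calling threshold cannot be graded. Counts are of the 48 members. Under the non-overlap rule a count can only stay or rise when libraries are left out. The same holds for the chromosome Y subsets, the replicate block and pairs of the same number. These alternatives therefore cannot show a call to be lost.

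For less H3K9cr at the ends after UUO (25), 16 were called by share of covered bases, 3 by number of peaks and 12 of the 25 members with no neighbouring gene end. For more H3K9cr (0), 1 was called by number of peaks, 1 and 4 within libraries with and without chromosome Y peaks, and 0 to 1 leaving out each replicate, the 1 without ACSS2-/- control replicate 1. Over the body less H3K9cr (26) was 9 by number of peaks and 15 in limma, and more (0) was 1 with chromosome Y peaks. Less H3K9ac at the ends (31) was 17 by share, 6 by number of peaks, 20 in limma and 14 without a neighbouring end, and more (0) was 1 by share and 1 with chromosome Y peaks. Over the body less H3K9ac (37) was 15 by number of peaks and 17 in limma. No share of protein-coding genes is given for numbers of peaks over the body, so 9 and 15 cannot be set against it. Leaving out each replicate gave 25 to 29 and 31 to 39 for less of the marks at the ends. The libraries with the most and the fewest covered bases left out together, chosen after seeing the data, gave 27 and 36.

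For genotype in controls more H3K9cr (15) was 1 by share and 17 to 40 leaving out each replicate, highest without ACSS2-/- replicate 2. Less (1) was 12 by share and 3 with equal peak numbers, beside 24.4% and 4.46% of protein-coding genes, and 1 to 15 leaving out each replicate, highest without ACSS2-/- replicate 1. After UUO more H3K9cr (9) was 5 with equal peak numbers and 12 to 17 leaving out each, highest without WT replicate 1, and less (5) was 2 by share and 8 to 18, highest without WT replicate 2. More H3K9ac (18) was 21 to 28 leaving out each, lowest without ACSS2-/- replicate 2 and highest without ACSS2-/- replicate 1, and less (0) was 1 with equal peak numbers and 0 to 7, highest without WT replicate 1. Between marks, more H3K9cr (5) was 1 and more H3K9ac (1) was 2 by share. Beside the 5 with more H3K9cr after UUO at equal peak numbers, 5.21% of protein-coding genes had more. Beside the 1 with less H3K9ac, 2.31% had less. In all these alternatives the cause was not tested. Leaving out a library of a pair leaves 1 sample there, a value without its own spread.

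With the replicate number as a block (same sign in each pair), ACSS2-/- controls had more H3K9cr at 23 members and less at 2, and ACSS2-/- UUO less at 9, and other counts stayed within 1.5 times, among them 28 with less H3K9cr and 36 with less H3K9ac after UUO. No share of protein-coding genes is given with the block, so its counts cannot be set against all genes. Between genotypes the numbers belong to different mice, and between operations no label ties them. Deviations of libraries with the same number correlated at -0.329 to 0.178, the lowest between the marks in ACSS2-/- UUO, where the mouse numbers in the peak names run opposite to the labels. For the marks, pairs of the same label number gave 7 members with more H3K9cr and 1 with more H3K9ac, and crossing the numbers in ACSS2-/- UUO, an alternative chosen after seeing the data, also gave 7 and 1. All other alternatives kept each count within 1.5 times of its value.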
